A study of Mus musculus with 5 samples.

Results

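The genes of the two-cell-like state described here are 10, chosen by name as markers of that state: Zscan4c, Zscan4d, Zscan4f, Zfp352, Tcstv1, Tcstv3, Arg2, Sp110, Tmem92 and Tdpoz4. Every probe set (the group of short oligonucleotides that reports 1 transcript on an Affymetrix array) listed with any of these symbols was taken, which gave 10 of the 45037 probe sets that are not array controls, for 8 of the 10 genes. Tmem92 and Tdpoz4 have no probe set in the annotation used here and are named only. Zscan4c, Zscan4d and Zscan4f share 1 probe set, which also lists Zscan4a and a pair of uncharacterized loci, so their signals cannot be separated. The annotation names 19324 genes in all.

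The series measured mouse embryonic stem cells after depletion of Tet1, the enzyme that oxidizes 5-methylcytosine in DNA. It holds 5 arrays of total RNA, each the only one of its group. J1 cells, an embryonic stem cell line kept here on fibroblast feeder cells, received a control siRNA or a Tet1 siRNA and were taken 4 days later. E14 cells, another embryonic stem cell line, kept without feeders, were infected with lentivirus for a scrambled hairpin, Tet1 shRNA3387 or Tet1 shRNA2863 and taken after 4 days in puromycin. Cell line, feeders and the means of depletion therefore change together between J1 and E14, and their parts in any J1 to E14 difference cannot be told apart. No group was repeated, so a difference between 2 arrays has no replicate check, and the text gives its size with no p-value.

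In cultures of mouse embryonic stem cells, a few cells at any time pass through a transient state in which genes of the two-cell embryo are switched on, together with MERVL retroelements. The transcription factor Dux and the chromatin proteins Dppa2 and Dppa4 promote that state, while Trim28, Setdb1 and the histone demethylase Kdm1a are among the factors that hold it down. The Zscan4 genes, which encode proteins with a SCAN domain and zinc fingers, are its best known markers and have been tied to telomere lengthening in mouse embryonic stem cells. RNA of a whole culture was measured here, so fewer cells in the state and less RNA per cell cannot be told apart.

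Zscan4c, Zscan4d and Zscan4f, all on chromosome 7, are listed with 1 shared probe set, and their promoter windows are also much alike. RefSeq windows of 300 bases (250 before and 50 after the annotated start, build GRCm38.p6) were available for 6 of the 10 genes. Capitals mark CpG, the site that Tet1 and the DNA methyltransferases act on, and the letters TATAAA. The Zscan4c window is chr7:11005495-11005794 on the plus strand, that of Zscan4d chr7:11166099-11166398 on the minus strand, and that of Zscan4f chr7:11397665-11397964 on the plus strand. Zfp352, the member highest with Tet1 siRNA relative to its control, is shown beside them, and its window is chr4:90218570-90218869 on the plus strand.

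Zscan4c: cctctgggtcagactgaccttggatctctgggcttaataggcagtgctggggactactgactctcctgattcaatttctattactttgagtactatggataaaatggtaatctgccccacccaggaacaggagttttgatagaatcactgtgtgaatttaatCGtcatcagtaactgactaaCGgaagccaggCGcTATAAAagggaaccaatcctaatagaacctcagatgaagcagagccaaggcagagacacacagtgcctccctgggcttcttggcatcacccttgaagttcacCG
Zscan4d: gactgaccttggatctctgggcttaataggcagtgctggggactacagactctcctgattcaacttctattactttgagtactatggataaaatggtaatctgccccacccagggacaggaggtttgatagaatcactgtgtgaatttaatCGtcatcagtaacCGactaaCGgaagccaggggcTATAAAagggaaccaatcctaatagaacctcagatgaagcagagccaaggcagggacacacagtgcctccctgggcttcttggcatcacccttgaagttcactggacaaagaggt
Zscan4f: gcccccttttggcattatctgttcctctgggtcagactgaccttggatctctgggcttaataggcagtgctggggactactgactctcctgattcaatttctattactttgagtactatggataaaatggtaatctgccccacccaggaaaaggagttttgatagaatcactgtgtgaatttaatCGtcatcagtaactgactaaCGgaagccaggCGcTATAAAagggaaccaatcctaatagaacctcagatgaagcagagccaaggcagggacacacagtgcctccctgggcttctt
Zfp352: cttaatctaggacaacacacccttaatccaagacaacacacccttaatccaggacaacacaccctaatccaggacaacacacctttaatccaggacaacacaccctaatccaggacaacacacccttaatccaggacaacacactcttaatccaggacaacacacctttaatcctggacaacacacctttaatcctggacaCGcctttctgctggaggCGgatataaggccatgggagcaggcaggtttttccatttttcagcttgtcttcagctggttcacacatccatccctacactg

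Where they overlap, the Zscan4c and Zscan4f windows were identical at 275 of 277 positions (99.3%), Zscan4c and Zscan4d at 281 of 289 (97.2%), and Zscan4d and Zscan4f at 259 of 266 (97.4%), with 0 gaps. The annotated starts are staggered, so TATAAA begins 54, 65 and 31 bases before the start of Zscan4c, Zscan4d and Zscan4f. TATAAA on the gene's own strand was found in 8.32% of all 32851 windows of this length, and on either strand in 13.6%; among the 7 member windows it was in the 3 of Zscan4. The Zscan4c window held 4 CpG and those of Zscan4d and Zscan4f held 3 each, against a median of 7 over all windows. Zfp352 had 2, Sp110 had 3 and 5 in its 2 windows, and Tdpoz4 had 0. The Zfp352 window holds 7 copies of the 12-base word ggacaacacacc, and 0.164% of all windows hold any 12-base word that often. These counts describe letters only and say nothing of methylation, which was not measured on these arrays.

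Zscan4 signal was lower with 1 hairpin and close to its controls with the other 2 Tet1 reagents. The shared probe set 1457033_at had a value of 8.69 in J1 control cells and 8.74 after Tet1 siRNA, on the deposited log2 scale. Its E14 values were 8.61 for scramble, 7.16 for shRNA3387 and 8.73 for shRNA2863. The shRNA3387 array thus stood alone, and the other 4 lay within 8.61 to 8.74, across both lines. The log2 differences from the control of the same line were 0.05 for Tet1 siRNA, -1.45 for shRNA3387 (2.73-fold lower, 36.6% of scramble) and 0.12 for shRNA2863. Of the 29001 probe sets kept by a filter on low values (above the 40th percentile of an array on at least 1 array), 38 differed as low or lower with shRNA3387. Against shRNA2863 the shRNA3387 array was lower by a log2 difference of -1.57 (2.97-fold), with 11 of 29001 as low or lower.

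**Figure D1:**
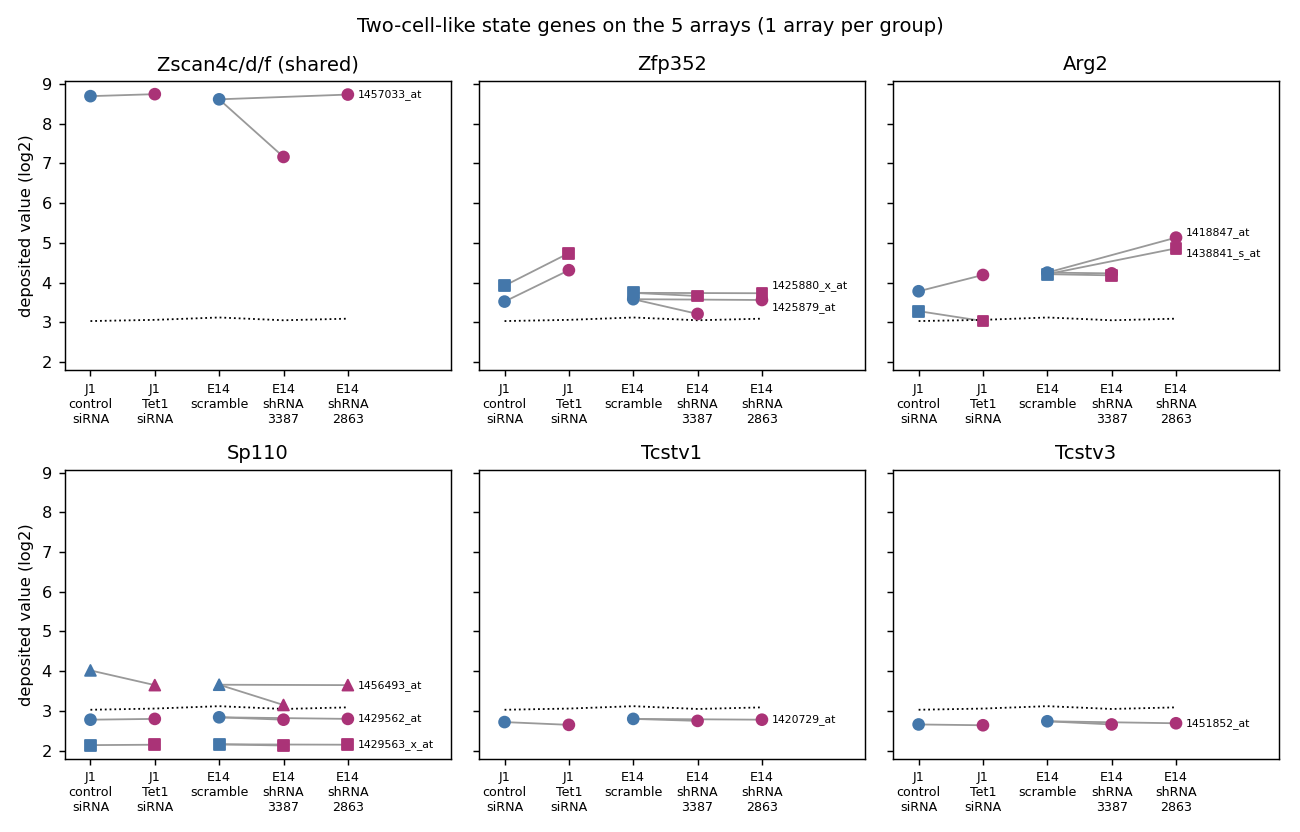
Deposited log2 values of each member probe set on the 5 arrays, 1 point per array, with controls in blue and Tet1-depleted arrays in purple. Grey lines join each depleted array to its control, and the dotted line is the 40th percentile of each array, between 3.03 and 3.12; Zscan4 drops to 7.16 with shRNA3387, and Tcstv1 and Tcstv3 stay under the dotted line.

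Tet1 itself was lower on all 3 depleted arrays. Its probe set 1455425_at read 10.85 and 8.31 in J1 control and Tet1 siRNA cells, and 10.95, 9.24 and 10.06 with scramble, shRNA3387 and shRNA2863. The differences were -2.54 for siRNA, -1.71 for shRNA3387 and -0.89 for shRNA2863. The other 2 kept Tet1 probe sets differed by -2.84, -2.40 and -1.18 (1429448_s_at) and by -1.52, -1.80 and -1.01 (1419896_at). The related enzyme Tet2 differed by -1.13, -0.19 and -0.17 in 1455300_at, its kept probe set with the largest difference. Tet1 was thus lower with shRNA3387 than with shRNA2863 in all 3 kept probe sets. J1 siRNA cells, where Zscan4 differed by 0.05, had the lowest Tet1 difference in 2 of the 3. The relation of the Tet1 level to the Zscan4 values was not tested.

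None of these Zscan4 values passed a test over arrays. In limma with terms for line and Tet1 depletion, the Tet1 term for Zscan4 was -0.36 ± 0.58 (SE, 3 depleted and 2 control arrays), with an adjusted p of 0.893. The mean of both hairpins differed from scramble by -0.665 ± 0.94 (SE, limma adjusted p = 0.847), where the error comes from the hairpin arrays alone. Across all 29001 probe sets both limma fits called 0 (0% of the tested) at an adjusted p under 0.05, with 1732 and 3529 at an unadjusted p under 0.05. The other 9 member probe sets were not called in these fits either. In the Tet1 term 0 of the 5 kept probe sets of Tet1 and Tet2 were called, though Tet1 differed by -2.84 to -0.89. That fit thus missed the lower Tet1 itself, and a missing call for Zscan4 does not show a lack of change. The hairpin mean takes its error from the gap between the hairpins, -1.57 for Zscan4, so a drop with 1 hairpin widens that error.

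At 2-fold, 1 of the 10 member probe sets was past the threshold in a Tet1 comparison, that of Zscan4 with shRNA3387, where 0.610% of all kept probe sets were 2-fold lower and 2.18% 2-fold higher. With Tet1 siRNA in J1 cells 0 of 10 were 2-fold different, beside 1.92% higher and 1.04% lower among all kept probe sets. With shRNA2863 it was 0 of 10, beside 1.0% higher and 0.555% lower. Between the hairpin arrays 1 of 10 was 2-fold lower with shRNA3387 and 0 were higher, beside 0.300% lower and 0.793% higher. The median difference over the 10 was 0.015 for Tet1 siRNA, -0.07 for shRNA3387 and -0.01 for shRNA2863, with 4 of the 10 below the filter level. Over the 6 kept it was 0.23, -0.225 and 0.055, and over all kept probe sets 0.01, -0.02 and -0.01.

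**Figure D2:**
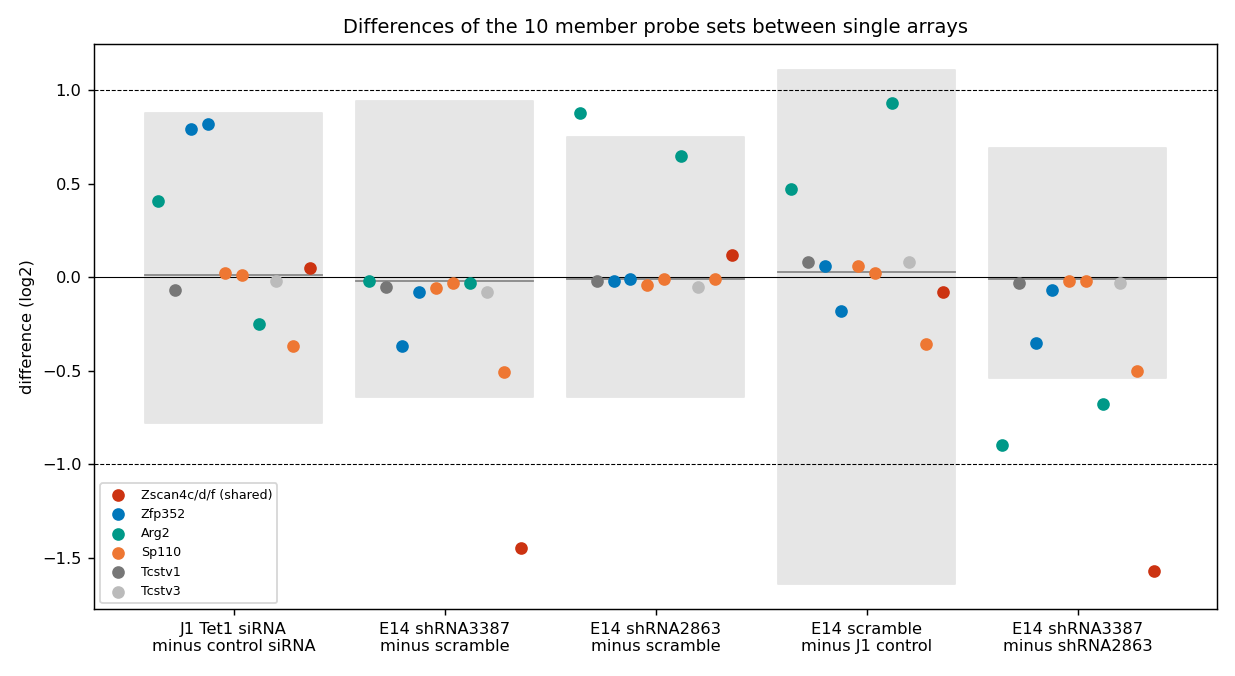
Log2 differences of the 10 member probe sets between pairs of single arrays (y axis), 1 point per probe set coloured by gene. Grey boxes span the middle 95% of the 29001 kept probe sets with their median as a grey line, and dashed lines mark 2-fold; the Zscan4 point lies at -1.45 and -1.57 in the comparisons that use shRNA3387.

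Zfp352, a zinc finger gene expressed in the early mouse embryo, was higher with Tet1 siRNA in J1 cells and with neither hairpin. Probe set 1425879_at read 3.52 and 4.31 in J1 control and Tet1 siRNA cells, and 3.58, 3.21 and 3.56 with scramble, shRNA3387 and shRNA2863. Probe set 1425880_x_at read 3.92 and 4.74, then 3.74, 3.66 and 3.73. In both, the J1 Tet1 siRNA array was the highest of the 5. The J1 differences were 0.79 and 0.82 (1.73-fold and 1.77-fold higher), with 980 and 887 of 29001 kept probe sets as high or higher, and the hairpin differences lay between -0.37 and -0.01. At 1.5-fold, 2 of 10 member probe sets were higher with Tet1 siRNA, both of Zfp352, beside 5.94% of all kept probe sets. They report the same gene, so they are not 2 independent results. All 10 values lay between 3.21 and 4.74, and the filter level lay between 3.03 and 3.12.

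The Zfp352 effect was set against that in E14 by a limma contrast. The mean E14 effect minus the J1 effect was -0.985 ± 0.325 (SE) for 1425879_at and -0.865 ± 0.092 for 1425880_x_at, with limma adjusted p of 0.336 and 0.182. Across all probe sets this contrast called 0 of 29001 (0%), with 5302 at an unadjusted p under 0.05. Over the same J1 arrays the 22 kept probe sets of trophectoderm markers, genes of the embryo's outer layer, had a median difference of 0.525, with 6 of 22 past 2-fold higher, beside 1.92% of all kept probe sets, and their mean level was 6.56 in control and 7.24 in Tet1 siRNA cells. The largest differences there were those of Plac1 (2.70), Cited1 (2.12) and Ascl2 (1.23). The 18 kept probe sets of embryonic stem cell markers had a median of -0.51, with Esrrb at -1.21, Nanog at -0.88 and Fgf4 at 1.12 and -0.91 in 2 probe sets, and the 38 of fibroblast markers 0.02. The part of these shifts in the Zfp352 values was not tested.

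Arg2, the mitochondrial arginase that turns arginine into ornithine and urea, was higher with shRNA2863 than with scramble in both of its probe sets. Probe set 1418847_at read 3.78 and 4.19 in J1 control and Tet1 siRNA cells, then 4.25, 4.23 and 5.13 with scramble, shRNA3387 and shRNA2863. Probe set 1438841_s_at read 3.28 and 3.03, then 4.21, 4.18 and 4.86. In both, the shRNA2863 array was the highest of the 5, by differences from scramble of 0.88 and 0.65 (1.84-fold and 1.57-fold). In J1 cells the probe sets pointed apart, with 0.41 and -0.25, and the second was under the filter level with Tet1 siRNA. At 1.5-fold, 2 of 10 member probe sets were higher with shRNA2863, both of Arg2, beside 4.47% of all kept probe sets. Between the hairpin arrays 3 of 10 were 1.5-fold lower with shRNA3387, those of Arg2 and Zscan4, beside 2.03%. The limma Tet1 term was 0.42 ± 0.32 and 0.07 ± 0.28 (SE), with adjusted p of 0.755 and 0.983.

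Sp110, a nuclear body protein of the Sp100 family that interferon induces, has 3 probe sets, of which 1 was kept. Probe set 1456493_at read 4.02 and 3.65 in J1 control and Tet1 siRNA cells, and 3.66, 3.15 and 3.65 with scramble, shRNA3387 and shRNA2863. The shRNA3387 array was the lowest, by -0.51 from scramble, and Tet1 siRNA differed by -0.37 and shRNA2863 by -0.01. The other probe sets, 1429562_at and 1429563_x_at, were below the filter level throughout, at 2.78 to 2.84 and 2.13 to 2.16. In limma the kept one had a Tet1 term of -0.31 ± 0.18 (SE, adjusted p = 0.754). The kept probe sets of interferon-induced genes (21, for 15 of 25 genes) had medians of -0.18, -0.04 and -0.02 for siRNA, shRNA3387 and shRNA2863, and Sp100 was under the filter level on all arrays. The list's largest differences were those of Xaf1 (-0.68, -1.52 and -1.20), Stat2 (-1.02, -0.05 and -0.97), Trim25 (1.02, -0.03 and 0.38) and Parp14 (-0.95, -0.41 and -0.44), in the same order.

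Tcstv1 and Tcstv3, small genes named for their variable expression at the 2-cell stage, gave no signal above the filter level. Tcstv1 lay between 2.65 and 2.80 and Tcstv3 between 2.64 and 2.74 over the 5 arrays. Their differences in the 3 depletions ran from -0.08 to -0.02, too small at this level to be read as change. With these 2 and the 2 low Sp110 probe sets, 4 of the 10 were not kept and entered no limma test. All 6 kept probe sets were below scramble with shRNA3387, beside 58.9% of all kept probe sets. All 6 were also below shRNA2863, beside 59.9%. After centring each array on its median all 6 were still below shRNA2863, beside 10209 of 29001 kept probe sets. Below scramble were then 4 of 6, beside 9278 of 29001. The Arg2 pair, at -0.02 and -0.03, turned.

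Among kept probe sets, E14 scramble differed from J1 control by -0.18 to 0.06 for Zscan4 and Zfp352, and by more for Sp110 and Arg2. J1 control and E14 scramble cells read 8.69 and 8.61 for Zscan4. They read 3.52 and 3.58 for Zfp352 in 1425879_at and 3.92 and 3.74 in 1425880_x_at. For Sp110 (1456493_at) they read 4.02 and 3.66, a difference of -0.36. The Arg2 probe sets were higher in E14 scramble, by 0.47 and 0.93 (1.39-fold and 1.91-fold). At 1.5-fold 1 of the 10 was higher in E14, beside 9.32% of all kept probe sets. At 2-fold 0 of 10 differed, beside 3.37% higher and 7.47% lower.

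With the Tet1 term held, limma gave an E14 minus J1 difference of 1.25 ± 0.28 (SE, 3 E14 and 2 J1 arrays) for Arg2 1438841_s_at, with an adjusted p of 0.0753, and of 0.48 ± 0.32 for 1418847_at (adjusted p = 0.387). All 3 E14 arrays were above both J1 arrays in these probe sets, for 1438841_s_at by 4.18 or more against 3.28 or less. For 1418847_at the margin was narrow, with 4.23 or more against 4.19 or less. With a stricter filter at the 60th percentile the adjusted p of 1438841_s_at was 0.0442, past the threshold, on fewer probe sets tested. The term for Zfp352 was -0.50 ± 0.29 and -0.67 ± 0.24, for Sp110 -0.30 ± 0.18 and for Zscan4 -0.49 ± 0.58, with limma adjusted p between 0.166 and 0.614. So 0 of the 6 kept member probe sets were called, beside 14.7% of all kept probe sets (4260 of 29001).

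Other genes of the two-cell-like state were taken as a list of 84, of which 47 had a probe set and 37 a kept one (41 probe sets, without the member ones). With shRNA3387, 4 of the 41 were 2-fold lower and 0 higher, beside 0.610% and 2.18% of all kept probe sets. At 1.5-fold 7 of 41 were lower, beside 3.22%. A difference below 0 was found in 31 of 41 (75.6%), beside 58.9% of all kept probe sets. After median centring it was found in 23 of 41 (56.1%), beside a smaller share of all kept probe sets (9278 of 29001). The share below 0 thus fell in both, and that of the list stayed the higher. After this centring 3 of the 41 were 2-fold lower and 0 higher, beside 143 and 732 of 29001. With shRNA2863 0 were 2-fold lower and 0 higher, and with Tet1 siRNA 1 was lower and 2 higher. The median difference was -0.11 with shRNA3387, -0.01 with shRNA2863 and -0.02 with Tet1 siRNA, and that of all kept probe sets was -0.02, -0.01 and 0.01. Limma called 0 of the 41 in the Tet1 term and in the hairpin mean.

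The 4 lower probe sets belong to genes of mixed or unknown function. Gm20767 read 3.88 and 5.12 in J1 control and Tet1 siRNA cells, and 5.86, 4.76 and 5.82 with scramble, shRNA3387 and shRNA2863, so it was higher in Tet1 siRNA cells and lower with shRNA3387. The probe set shared by Gm4027, BB287469 and Eif1a read 7.75, 7.95, 7.71, 6.50 and 7.97 on the arrays in the same order. The 2 probe sets listed with Eif1a alone, a translation initiation factor, differed by 0.07 and -0.21 with shRNA3387. AF067061 read 6.06, 5.89, 6.49, 5.28 and 6.14, and the autophagy receptor Calcoco2 read 9.39, 9.27, 8.20, 7.18 and 8.20. In all 4 the shRNA3387 array was below both other E14 arrays, by at least 0.86 on the log2 scale. The ubiquitin ligase Rnf168 had the list's largest difference, 1.59 with Tet1 siRNA in 1455586_at, and differed by -0.08 there in its other probe set. Calcoco2 stands outside the 4 largest differences of the list and was chosen for mention after its value was seen.

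The other 3 past 1.5-fold lower with shRNA3387 were chosen in the same way. The probe set of Gm4340 and 6 further symbols read 9.33 with scramble, 8.36 with shRNA3387 and 9.07 with shRNA2863. That of Gm428 and 5 further symbols read 5.36, 4.56 and 5.23, and the deubiquitinase Usp17la read 6.06, 5.45 and 6.28. In J1 cells these 3 differed by 0.20, 0.04 and 0.17. Duxf3, the gene for Dux, lay between 3.70 and 3.88 on all 5 arrays in its kept probe set. Both comparisons of a hairpin with scramble use the same scramble array, and the shRNA3387 values are those of a single culture.

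**Figure D3:**
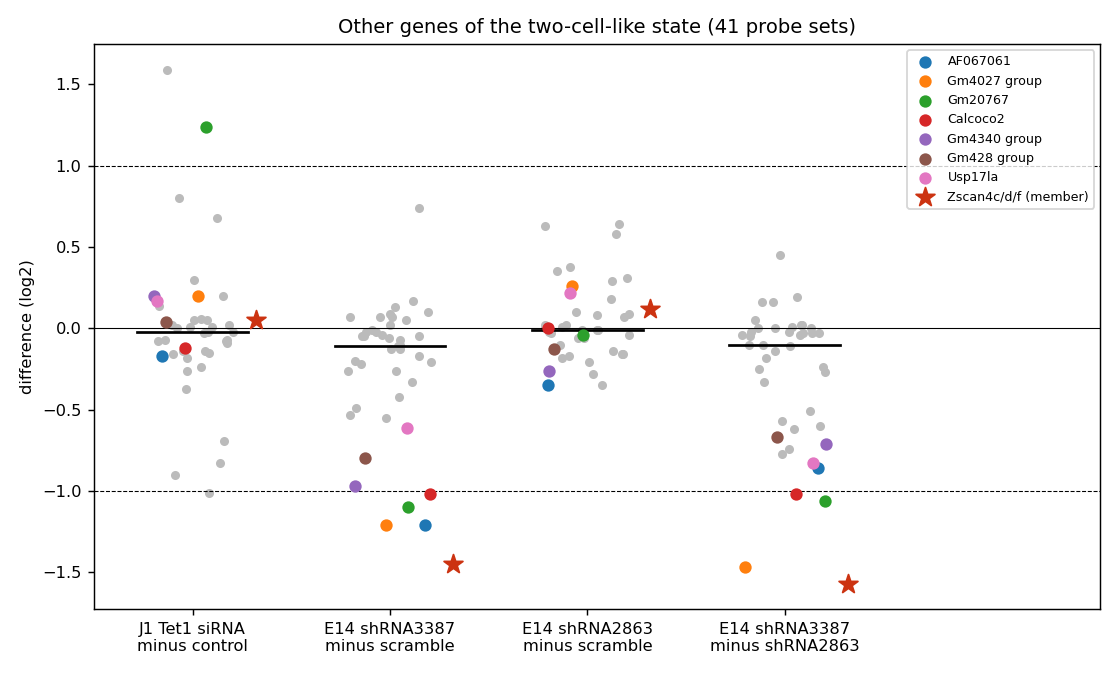
Log2 differences (y axis) of the 41 kept probe sets of other genes of the two-cell-like state in 4 pairs of arrays, 1 point per probe set, with medians as black bars and 2-fold as dashed lines. The 7 probe sets past 1.5-fold lower with shRNA3387 are coloured and the Zscan4 probe set is a star; with shRNA3387 the coloured points lie between -1.21 and -0.61, and with shRNA2863 between -0.35 and 0.26.

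Among the 46 regulators of the state listed, 42 had a kept probe set (105 in all), and 3 of 105 were 2-fold lower and 1 higher with shRNA3387, beside 0.610% and 2.18% of all kept probe sets. With Tet1 siRNA 8 of 105 were 2-fold higher and 1 lower, beside 1.92% and 1.04%. The list's medians were -0.09, 0.02 and 0.06 in siRNA, shRNA3387 and shRNA2863, beside 0.01, -0.02 and -0.01 over all kept probe sets. Below 0 with Tet1 siRNA were 67 of 105 (63.8%), beside 44.8% of all kept probe sets. Tbx3, a T-box factor tied to the two-cell-like state in mouse embryonic stem cells, read 6.50 and 5.50 in J1 control and Tet1 siRNA cells in probe set 1437479_x_at, and 7.70, 5.97 and 7.40 with scramble, shRNA3387 and shRNA2863. Its other kept probe set differed by -0.52, -1.40 and 0.01 in siRNA, shRNA3387 and shRNA2863. With shRNA3387 both kept Tbx3 probe sets were thus over 2-fold lower, and with shRNA2863 neither was.

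The activators Dppa2 and Dppa4 differed by less than 2-fold throughout these depletions. Dppa2 differed by -0.57, -0.26 and 0.19 in siRNA, shRNA3387 and shRNA2863 in 1429654_at and by -0.16, -0.07 and 0.34 in 1453223_s_at, so both were lower with shRNA3387 than with shRNA2863, by -0.45 and -0.41. Dppa4 differed by -0.42, 0.01 and -0.06. The corepressor Trim28 differed by -0.66 and -0.46 in J1 cells in its 2 probe sets and by -0.13 to -0.01 with the hairpins. The histone methyltransferase Setdb1 (1416670_at), the chromatin remodeller Atrx (1450051_at) and the deubiquitinase Usp7 (1437118_at) had the list's other large differences, 1.92, 1.75 and 1.73, all in J1 cells. The other 2 Setdb1 probe sets differed by -0.27 and -0.06 there, the 7 of Atrx from -0.14 to 1.75 and the other 6 of Usp7 from -0.42 to -0.20. Probe sets of 1 gene thus disagreed in sign for these 3 genes.

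Telomere genes, listed because Zscan4 has been tied to telomere lengthening, had medians of -0.085, -0.01 and 0.02 over 38 kept probe sets in siRNA, shRNA3387 and shRNA2863. With shRNA3387 1 of 38 was 2-fold higher and 0 lower, beside 2.18% and 0.610% of all kept probe sets. That 1 was Terf1, a telomere-binding protein, which read 5.19 with scramble, 6.63 with shRNA3387 and 5.58 with shRNA2863 in 1443527_at. Its other 2 kept probe sets differed by 0.10 and 0.16 with shRNA3387. Smc1b, a meiotic cohesin, read 4.85 in J1 control cells and 2.40 after Tet1 siRNA, and 2.40 to 2.42 on the E14 arrays, under the filter level. The DNA repair ATPase Rad50 differed by -1.01 in J1 cells. The nuclease Exo1 differed there by 0.86 in 1418027_at and by 0.06 in 1418026_at. Relatives of the members (19 kept probe sets) had medians of 0.01, -0.01 and 0.02. The largest in that list were Spopl (1.30 with shRNA3387), Spop (0.75 in J1), Zscan10 (-0.56 in J1) and Zscan12 (0.53 with shRNA2863), and Arg1 and Zscan2 were under the filter level. The other kept relatives, Zscan20, Zscan21, Zscan22, Zscan26, Zscan29 and Zfp41, differed by -0.49 to 0.48, and Sp140 had no probe set.

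Genes whose pattern over the 5 arrays lay nearest to a member's were found by Euclidean distance after each probe set was centred on its own mean. For Zscan4 they were Mprip, a binding partner of myosin phosphatase (distance 0.24 log2 units), the linker histone H1f2 (0.47), the myosin light chain Mylpf (0.48), the secreted protein Serpinf1 (0.52) and Myof (0.53). Mprip (1456763_at) read 4.48, 4.41, 4.50, 3.14 and 4.49 on the arrays in their order. For Zfp352 (1425879_at) they were Bcl7c (0.08), 1700013H16Rik (0.09), Ino80d (0.11), Afap1l2 (0.11) and Agfg1 (0.12). For Arg2 (1418847_at) they were Taf7l (0.16), 4930453N24Rik (0.21), Lpar1 (0.21), 1700020N01Rik (0.23) and Nus1 (0.25). The x_at probe set of Zfp352 had Cyp4f16 nearest (0.07) and the s_at probe set of Arg2 had St8sia6 (0.22). With 29001 probe sets and 5 arrays some lie near any pattern.

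**Figure D4:**
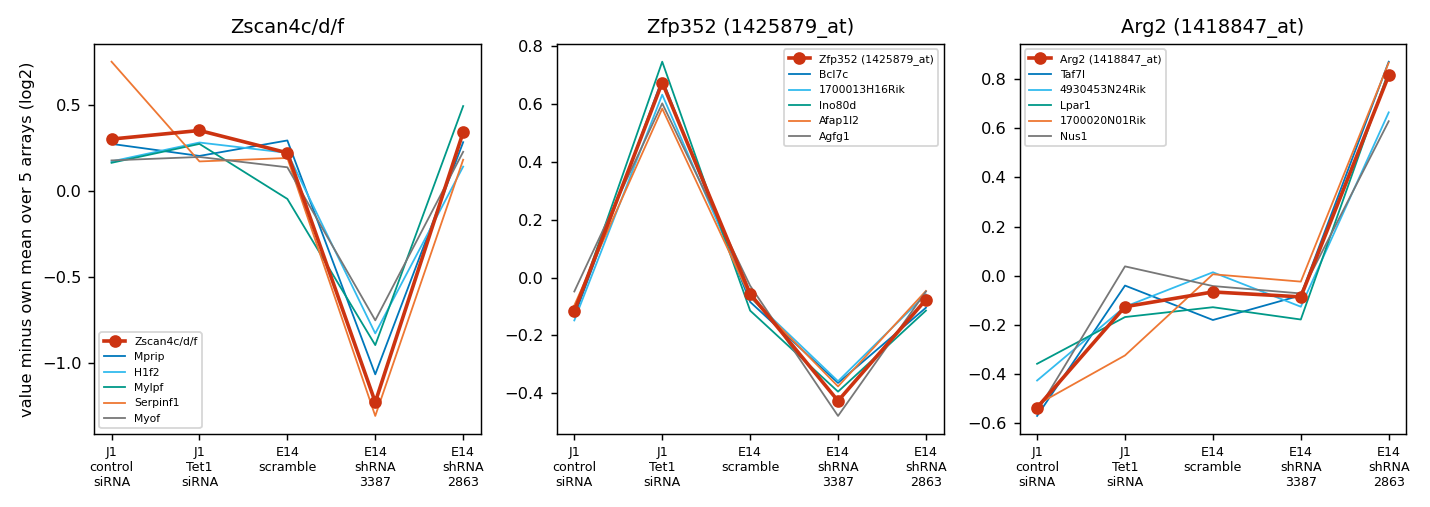
Values minus each probe set's own mean over the 5 arrays (y axis, log2) for Zscan4, Zfp352 and Arg2 in thick red and their 5 nearest single-symbol probe sets in thin lines. The patterns share the low shRNA3387 array for Zscan4, the high J1 Tet1 siRNA array for Zfp352 and the high shRNA2863 array for Arg2.

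Markers of the cell types the cultures could hold were checked on the same arrays. All 12 embryonic stem cell markers had a kept probe set, with a mean level over 18 probe sets of 9.22 and 8.82 in J1 control and Tet1 siRNA cells and 9.43 to 9.51 in E14 cells. Fibroblast markers (38 kept probe sets, for 21 of 25 genes) had a mean of 5.76 and 5.74 in J1 cells and 5.40, 5.26 and 5.38 with scramble, shRNA3387 and shRNA2863. The E14 cells were kept without feeders and still gave signal for this list, so its level alone does not measure feeder content. With shRNA3387 3 of the 38 were 2-fold lower and 1 higher, beside 0.610% and 2.18% of all kept probe sets. The smooth muscle actin Acta2 read 8.62, 7.16 and 8.83 with scramble, shRNA3387 and shRNA2863, and the surface receptor Cd44 differed by 1.38 with shRNA3387 and 1.41 with shRNA2863. The collagen Col1a1 differed by -3.00 in J1 cells and by -0.02 with shRNA3387 in 1423669_at. That probe set read 4.88 in J1 control cells and 1.87 to 1.89 on the other arrays, under the filter level. In 1455494_at Col1a1 differed by -0.50 in J1 cells and by -1.31 with shRNA3387. A difference below 0 with shRNA3387 was found in 28 of 38 (73.7%), beside 58.9% of all kept probe sets. Trophectoderm markers had a mean level of 5.55, 5.54 and 5.83 with scramble, shRNA3387 and shRNA2863 over 22 kept probe sets, and 4 of these were 2-fold lower with shRNA3387 than with shRNA2863, beside 0.300% of all. Those 4 report the keratins Krt8 and Krt18, which differed from scramble by -0.83 to -0.59 with shRNA3387 and by 0.56 to 0.73 with shRNA2863. Esx1, a placental homeobox gene, differed by 1.64 and 1.15 with the hairpins. The part of these markers in the Zscan4 values was not tested.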

How the data were processed

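Total RNA of 5 cultures was labelled with biotin and measured on Affymetrix arrays, 1 per group. The authors deposited 1 log2 value per probe set, a scale inferred from the range of 1.38 to 14.12, and how they summarized and normalized the scans is not given in the sources used here. They were used as deposited (45101 probe sets, 64 of them array controls), with array medians from 3.45 to 3.52. Symbols came from the platform annotation, gene identities and promoters from RefSeq, GRCm38.p6. No 2 arrays shared over 14.7% of values.

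Fits used limma 3.58.1 (R 4.3.3) with its trend option on the 29001 kept probe sets, with Benjamini-Hochberg adjustment over them (two-sided, threshold 0.05). The fit with line and Tet1 terms had 2 residual degrees of freedom, from how the 3 depletions differed. The fit of 4 means had 1, from the hairpin pair, and assumes that lone arrays vary alike. Such p-values rest on the spread among these arrays alone, whose number limits precision. The fits were tested on simulated data.

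Members, lists and tests were chosen with earlier results of these data known. Named were all members and family relatives, the 4 largest differences of each list and the 5 nearest patterns, besides the exceptions the text states. The alternatives tried were other scalings, filters and thresholds, 1 probe set per gene, no trend, no line term and leaving out each array.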

Additional observations from a re-analysis of the deposited data

Results flagged for a closer look

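As deposited, the direction in J1 cells was opposite to that of both hairpins for 4 member probe sets. After quantile normalization it was so for none of them. Among these 4, after median centring it was so only for Sp110 1429563_x_at, with the signs reversed (-0.03 in J1, then 0.03 and 0.02). Other members became opposite on rescaling. Arg2 1438841_s_at was so after median centring (-0.29 in J1, then 0.03 and 0.68). Tcstv1 1420729_at, under the filter level, was so after median centring (-0.11, then 0.01 and 0.01). It was also so after quantile normalization (-0.09, then 0.008 and 0.01). For Zfp352 the mean E14 effect minus the J1 effect was -0.985 in 1425879_at (0.79 in J1, then -0.37 and -0.02) and -0.865 in 1425880_x_at (0.82, then -0.08 and -0.01), with limma adjusted p of 0.336 and 0.182. The shRNA2863 differences of both turned, to 0.012 and 0.012 after quantile normalization and to 0.01 and 0.02 after median centring. For Sp110 it was -0.07 in 1429562_at and -0.03 in 1429563_x_at. Both were below the filter level throughout, and their difference between the lines was not tested. After median centring their J1 differences were -0.02 and -0.03.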

How the results depend on the processing

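Of the 10 counts of member probe sets past 2-fold, none moved under quantile normalization, median centring or the filter. At 1.5-fold the counts became 2 higher with Tet1 siRNA (from 0), 2 higher with shRNA2863 (from 0), 1 higher in E14 scramble over J1 control (from 0) and 3 lower with shRNA3387 than with shRNA2863 (from 1). With probe sets of 1 symbol only, which drops Zscan4, the counts lower with shRNA3387 were 0. The Zscan4 difference with shRNA3387 was -1.51 after quantile normalization and -1.39 after median centring. Limma called 0 probe sets in the Tet1 term, the hairpin mean and the difference of effects under all alternatives that kept the adjusted threshold, and 1732, 3529 and 5302 at an unadjusted p under 0.05. For E14 against J1 it called 4260, 9097 unadjusted, and 1936 of 13619 with 1 probe set per gene. Of the 6 Tet1 terms of the members, 4 turned when an array was left out: leave-one-out values ran from -0.195 to 0.79 for Zfp352 1425879_at, from -0.045 to 0.82 for 1425880_x_at, from -0.25 to 0.31 for Arg2 1438841_s_at and from -0.70 to 0.085 for Zscan4 (0.05 without scramble, 0.085 without shRNA3387), with no adjusted p under 0.05. The comparison of the hairpin arrays with each other, at both thresholds, and the shares below 0 of lists and of all kept probe sets were added after seeing the data. Single arrays and values near the filter level limit all of this.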
